A study of Sus scrofa with 50 samples.

Results

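Cytosolic ribosomal protein genes encode the proteins that, together with ribosomal RNA, form the 40S and 60S subunits of the ribosome outside mitochondria. Their transcripts are among the most abundant in animal cells. They carry a 5′ terminal oligopyrimidine tract through which mTOR signalling sets their translation as a group, and a few members have paralogues with tissue-restricted expression, the best known being RPL3L in striated muscle. Ribosomal proteins are needed in equal numbers per ribosome, with the exception of the acidic P-stalk proteins RPLP1 and RPLP2, which sit as dimers on RPLP0.

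The data were transcript levels from RNA-seq of Korean minipigs of an ET type and an L type. 5 animals of each type (ET: S0235, S0242, S0276, S0309 and S0326; L: S0349, S0355, S0377, S0384 and S0385) gave backfat, brain, loin, lymph tissue and tenderloin, which makes 50 libraries in 10 groups of 5. The labels name no treatment, age or sex, and do not spell out the letters of the types. Levels are given as TPM (transcripts per 1000000 transcripts), a level per transcript length in which every library sums to 1000000, so a higher level of some transcripts lowers all others.

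Members were the protein entries of Swiss-Prot that were the best BLASTX hit of an assembled transcript, at an E value of at most 1e-10 and from an animal, and whose protein name begins as a 40S or 60S ribosomal protein, a 60S acidic ribosomal protein or a large or small ribosomal subunit protein. This wording took in 225 entries, of which 92 carry the systematic names of mitochondrial ribosomal proteins and were set apart as a list for comparison. The other 133 entries, holding 296 transcripts, stand for 77 distinct proteins among 17558 entries in all. An entry carries the species of its best hit, so 1 pig protein can be split: 42 proteins had 2 or more entries, at most 4, and 35 had 1. RPL41, RPS15 and RPS28 had no member entry and are not analysed here. RPS27A and FAU, whose ribosomal protein is made as a fusion, fell outside the wording and are given beside the members. In RefSeq's table of the Sscrofa11.1 assembly, 76 of the 77 proteins matched 1 protein-coding gene each. They lay on 17 chromosomes, with at most 11 on 1 chromosome (chromosome 6), and 4 of them, RPL10, RPL36A, RPL39 and RPS4X, lay on X.

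Of the 50 libraries, 45 were used, as set by the selection. Those left out were the backfat, loin and brain libraries of S0355 and the lymph and brain libraries of S0235. Skeletal muscle markers (CKM, ACTA1 and others) summed to 69179 TPM in the library labelled backfat of S0355 and to 25.9 TPM in the library labelled loin of the same animal, where adipocyte markers summed to 12439 TPM. The lymph library of S0235 held 15.6 TPM of T cell markers, against 1332 to 3171 TPM in the other 9 lymph libraries. The brain libraries of both animals held 37706 and 53547 TPM of oligodendrocyte markers, while the other 8 brain libraries held at most 115 TPM of these and 20971 to 82994 TPM of pituitary hormone markers, so the word brain here stands for libraries rich in pituitary transcripts. Counts of called members are also given with all 50 libraries; group levels, shares and ratios are given for the 45 only. The labels give no sequencing depth or batch, and the depth is unknown. Type and animal are nested, as each animal has 1 type. In the type comparisons within a tissue, p-values measure the spread between these animals. In the comparisons among tissues they measure the spread between libraries, several of which come from the same animal.

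Summed over the 133 entries, cytosolic ribosomal protein transcripts made up 21.8% ± 3.44 (SD, n = 9) of TPM in lymph tissue, 17.9% ± 7.09 (SD, n = 9) in backfat, 7.36% ± 1.04 (SD, n = 8) in brain, 5.84% ± 1.04 (SD, n = 9) in loin and 5.80% ± 0.898 (SD, n = 10) in tenderloin. The sum ranged from 14.8% to 26.2% in the lymph libraries and from 4.41% to 7.51% in the muscle libraries, which did not overlap. Brain, loin and tenderloin overlapped one another. Backfat spanned 10.6% to 30.5%, the widest range of the 5 tissues, and the types lay apart there. The 5 ET-type backfat libraries held 13.3%, 13.4%, 14.6%, 10.8% and 10.6%, and the 4 L-type libraries 21.5%, 26.1%, 20.6% and 30.5%. Mitochondrial ribosomal proteins, measured in the same libraries, summed to means of 0.294% in lymph tissue, 0.317% in brain, 0.341% in backfat, 0.377% in loin and 0.409% in tenderloin, an order that differs from that of the cytosolic members. In bulk tissue, a different mix of cells and a different amount of RNA per cell cannot be told apart.

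**Figure D1:**
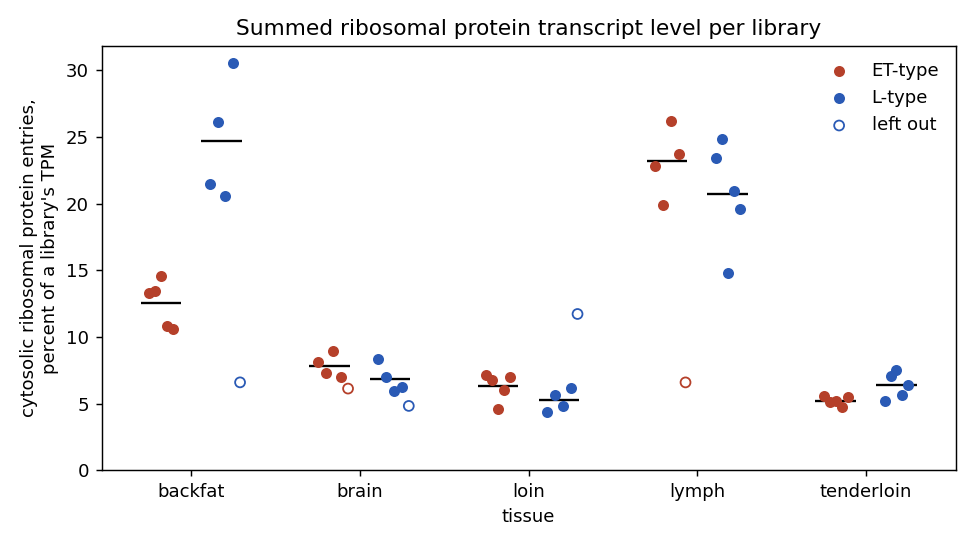
Percent of each library's TPM in the 133 cytosolic ribosomal protein entries (y axis) by tissue (x axis) and type (colour). Filled points are the 45 libraries used, open points the 5 left out, and black bars the group means; the 4 L-type backfat libraries, at 20.6% to 30.5%, lie above the 5 ET-type ones, at 10.6% to 14.6%.

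The members' levels differed widely among themselves. With entries summed per protein, RPLP1 had the highest mean over the 45 libraries, 8188 TPM, followed by RPLP2 at 5326 TPM, both of them P-stalk proteins that are present in more than 1 copy per ribosome. RPS3A and RPS18 of the small subunit came next, at 4631 and 4148 TPM. The 10 highest proteins held 33.6% of the members' TPM. Of the 77 proteins, 50 had a mean over 1000 TPM and 6 a mean under 100 TPM. The 5 lowest were RPL32 at 3.95, RPL31 at 10.1, RPL23 at 16.2, RPL36 at 55.4 and RPL7L1, a paralogue of RPL7 with a role in ribosome assembly, at 63.9 TPM. RPL32, RPL31, RPL23 and RPL36 are constituents of the 60S subunit. Whether further transcripts of theirs lack a protein hit or were not assembled was not tested. By entry, 123 of the 133 members had a mean of at least 1 TPM over the 45 libraries and entered the tests across tissues; the other 10 did not.

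Across the 45 libraries, 60 of the 77 proteins had a Pearson r above 0.9 between their log2(TPM + 1) and the median of the other members. RPL35 had the highest r, 0.99. RPL3L had the lowest, -0.69, followed by RPL31 at 0.12 and RPL7L1 at 0.55, while RPL3 had 0.81. These values are a description over libraries that share tissues and the TPM scale.

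Differences among tissues were tested with limma on log2(TPM + 1), with type as a covariate and p-values adjusted by Benjamini-Hochberg over all 16041 entries with a mean of at least 1 TPM; an entry was called at an adjusted p under 0.05. Of the 123 members tested, 120 were called (118 with all 50 libraries), but so were 98.7% of all entries, so the count says nothing particular to ribosomal proteins. In lymph tissue, 110 members were higher and 5 lower than the mean of the other 4 tissues, against 46.1% and 31.6% of all entries, and the median difference was 1.303 for the members and 0.23 for all entries. Backfat had 93 higher and 11 lower, against 30.5% and 38.4% of all entries, with a median of 0.87 for the members and -0.11 for all entries. Brain had 27 higher and 63 lower, against 69.9% and 13.9%, with medians of -0.35 and 0.88. With libraries scaled by median ratios, the brain median of all entries moved to -0.04 and the members' to -1.40, and 6 were higher and 93 lower. Loin had 1 higher and 111 lower, against 14.5% and 68.3%, with medians of -0.95 and -0.76. Tenderloin had 4 higher and 105 lower, against 12.7% and 71.2%, with medians of -0.87 and -0.77. The members' medians in muscle were therefore close to those of all entries, while a larger share of the members than of all entries was called lower. Under median-ratio scaling loin had 11 members higher and 36 lower and tenderloin 16 higher and 20 lower. The shares of all entries called under that scaling, in brain as in muscle, are not given here. With all 50 libraries the members higher and lower numbered 108 and 4 in lymph tissue, 88 and 8 in backfat, 21 and 61 in brain, 1 and 99 in loin, and 4 and 100 in tenderloin.

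RPL3 and its paralogue RPL3L showed opposite patterns across the tissues. RPL3 is the large-subunit protein nearest the peptidyl transferase centre, and RPL3L takes its place in ribosomes of skeletal and heart muscle. In RefSeq's Sscrofa11.1 table, RPL3 lies at chr5:8922697-8929768 and RPL3L at chr3:40004907-40016702. RPL3L was read from 1 transcript with 95.8% amino acid identity to the bovine entry, and RPL3 from a pig, a rat and a bovine entry that were summed. RPL3 stood at 2057 ± 1004 TPM (SD, n = 9) in backfat, 1039 ± 199 TPM (SD, n = 8) in brain and 2312 ± 436 TPM (SD, n = 9) in lymph tissue. In loin it stood at 86.0 ± 26.5 TPM (SD, n = 9) and in tenderloin at 154 ± 60.7 TPM (SD, n = 10). RPL3L stood at 354 ± 52.1 TPM (SD, n = 9) in loin and 289 ± 42.7 TPM (SD, n = 10) in tenderloin. In the 26 other libraries used it did not exceed 3.16 TPM, and the muscle libraries, from 208 to 434 TPM, did not overlap with these.

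In loin, RPL3 read 123, 97.1, 59.1, 90.6 and 109 TPM in the ET-type animals and 52.6, 111, 52.3 and 80.3 TPM in the L-type animals. RPL3L read 326.3, 361, 390, 260 and 320 TPM in the same ET-type and 344, 341, 408 and 434 TPM in the same L-type libraries. All 9 loin libraries therefore held more RPL3L than RPL3. In tenderloin, RPL3 read 167, 167, 138, 105 and 194 TPM in the ET-type and 68.6, 87.6, 278, 145 and 191 TPM in the L-type animals. RPL3L read 298, 354.9, 295, 269 and 236 TPM in the ET-type and 331, 294, 292, 309.1 and 208 TPM in the L-type animals. All 10 tenderloin libraries again held more RPL3L than RPL3. RPL3L made up 80.3% ± 6.36 (SD, n = 9) of the sum of both in loin, with a range of 72.7% to 88.6%, and 65.8% ± 10.5 (SD, n = 10) in tenderloin, with a range of 51.2% to 82.8%. The ranges of the 2 muscles overlapped. Both muscles come from the same animals, and within the 9 animals with both libraries the share was higher in loin in 9, by 15.7 ± 9.96 percentage points (SD), with a range of 2.24 to 32.3. RPL3 was lower in loin in all 9 of them, and RPL3L was higher in 8 and lower in 1. A second RPL3L entry, with a human best hit and a name outside the wording, added 20.7 TPM in loin and 18.7 TPM in tenderloin on average, and with it the shares were 81.1% and 67.2%.

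On the log2 scale, the pig entry of RPL3 was lower in loin than in the mean of the other tissues by a difference of -3.36 ± 0.16 (SE; limma adjusted p under 0.05) and in tenderloin by -2.35 ± 0.15, while it was 2.26 ± 0.16 higher in backfat and 2.36 ± 0.16 higher in lymph tissue. RPL3L was 5.68 ± 0.13 higher in loin and 5.31 ± 0.13 higher in tenderloin, and all of these passed. Between the muscles, the pig entry of RPL3 was lower in loin than in tenderloin, at -0.81 ± 0.20 (limma adjusted p = 0.0028), and RPL3L differed by 0.30 ± 0.17 (adjusted p = 0.24). With the animal as a replicate block the values were -0.83 ± 0.17 (limma adjusted p = 0.00063) and 0.31 ± 0.18 (adjusted p = 0.25). Neither differed between types in a way that passed in either muscle: the pig entry of RPL3 differed by 0.21 ± 0.28 in loin and -0.04 ± 0.30 in tenderloin, and RPL3L by -0.21 ± 0.16 and 0.02 ± 0.17. The left-out libraries of S0355 went with their other transcripts and not with their labels. The library labelled backfat held 103 TPM of RPL3 and 323 TPM of RPL3L, and the library labelled loin 1726 TPM of RPL3 and 0.134 TPM of RPL3L.

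**Figure D2:**
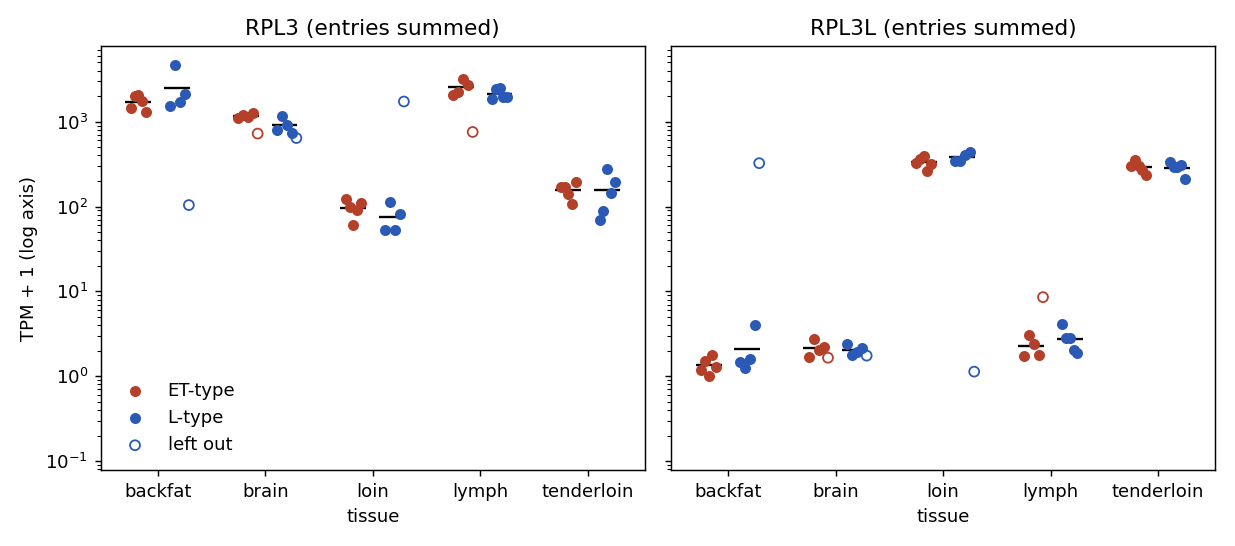
RPL3 (left) and RPL3L (right) levels per library, as TPM + 1 on a log axis, by tissue and type; filled points are libraries used, open points libraries left out, and bars are group means. RPL3L lies at 208 to 434 TPM in the muscle libraries and at no more than 3.16 TPM in the other libraries used, and both open points of S0355, in backfat and loin, lie with the other tissue.

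The make-up of the ribosomal protein transcript pool was compared as each protein's share of the members' TPM in its library, which does not depend on how a library is scaled. Between the highest and the lowest tissue mean, the share differed by under 1.5-fold for 27 of the 77 proteins, by 1.5-fold to 2-fold for 35 and by 2-fold or more for 15. After RPL3L and RPL3, the shares that differed most were those of RPL31 and RPL32, with low means of 10.1 and 3.95 TPM, then RPS27. With each library centred on the median of the members, a limma F-test across tissues called 111 of 123 members, against 99.2% of all entries, and 106 with all 50 libraries. The large-subunit entries summed to 1.29 ± 0.0223 times the small-subunit ones (SD, n = 9) in lymph tissue, 1.44 ± 0.0723 (n = 9) in backfat, 1.46 ± 0.0337 (n = 8) in brain, 1.66 ± 0.0415 (n = 9) in loin and 1.65 ± 0.0567 (n = 10) in tenderloin.

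P-stalk proteins differed between the muscles. RPLP1 made up 11.8% ± 1.35 (SD, n = 9) of the members' TPM in loin and 8.67% ± 0.858 (SD, n = 10) in tenderloin, against 5.98% to 6.68% as means of the other 3 tissues. RPLP2 made up 3.31% ± 0.721 in loin, 5.26% ± 0.822 in tenderloin and 6.39% ± 1.66 in backfat. The ratio of RPLP1 to RPLP2 was 3.80 ± 1.24 in loin (range 2.50 to 6.20), and 1.70 ± 0.375 in tenderloin (range 1.22 to 2.39), with no overlap between the muscles. In the limma comparison of loin with tenderloin, RPLP1 was higher in loin by 0.45 ± 0.16 (adjusted p = 0.043), and RPLP2 was lower, at -0.66 ± 0.17 (adjusted p = 0.0049). In all, 2 members were higher in loin (both entries of RPLP1) and 5 lower, against 9.88% and 6.53% of all entries, which are larger shares than the members' own. The 5 lower ones were both entries of RPLP2, the pig and bovine entries of RPL3, and 1 of RPL31. With the animal as a replicate block, 11 members were called, and with all 50 libraries 2. RPLP0, the stalk's base, took its lowest share in brain, 1.36% ± 0.153 (SD, n = 8), and its highest in loin, 2.64% ± 0.276 (SD, n = 9).

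Other proteins took shares particular in size to some tissues. RPS27, a small-subunit protein, made up 3.29% ± 0.550 in lymph tissue, 2.31% ± 0.387 in brain, 1.996% ± 0.494 in backfat, 1.29% ± 0.178 in tenderloin and 1.14% ± 0.248 in loin. RPS2, at the messenger RNA entry channel, had its lowest share in lymph tissue, 0.978% ± 0.175, and its highest in loin, 2.49% ± 0.452. RPL27 made up 2.05% ± 0.253 in loin and 2.17% ± 0.218 in tenderloin, against 0.987% ± 0.0965 in backfat, 0.933% ± 0.103 in brain and 1.15% ± 0.103 in lymph tissue. RPL10, a late-joining protein of the 60S subunit, made up 1.41% ± 0.115 in loin and 1.41% ± 0.161 in tenderloin, against 0.660% to 0.914% as means of the other tissues. RPL15 was at 0.944% ± 0.0847 in brain and at 0.395% to 0.493% elsewhere, and X-linked RPS4X at 1.90% ± 0.311 in brain, 1.39% ± 0.379 in backfat and 0.845% to 0.983% elsewhere. RPS29 showed its lowest share in brain, 0.495% ± 0.0367, and its highest in tenderloin, 1.28% ± 0.205.

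**Figure D3:**
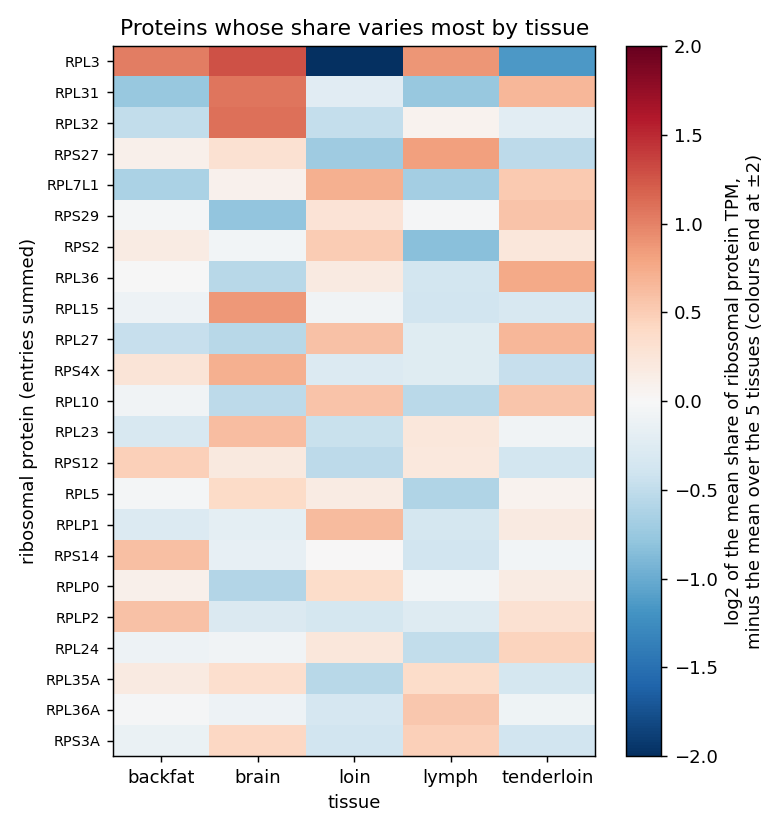
Heat map of the 23 proteins whose share of the members' TPM varied most across tissues after RPL3L, ordered from the top by the ratio of their highest to their lowest tissue mean. Colour is the log2 of the mean share in a tissue minus the protein's mean over the 5 tissues (red higher, blue lower); RPL3 is low in loin and tenderloin, RPS27 high in lymph tissue, and RPL27 and RPL10 high in both muscles.

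Among the other paralogues, RPS27L, an RPS27-like protein induced by p53, stood at 230 ± 44.2 TPM in lymph tissue, 207 ± 97.6 in backfat, 108 ± 17.5 in loin, 99.996 ± 16.6 in brain and 85.9 ± 12.2 in tenderloin. This order depends on the transcripts summed: with only hits at an E value of at most 1e-30, the RPS27L difference from the other tissues turned from 0.97 to -0.21 in lymph tissue, from -0.35 to 0.94 in loin and from -0.77 to 0.27 in tenderloin. RPS27 itself stood at 7272 ± 1974 TPM in lymph tissue and at 681 ± 251 in loin, a wider range. RPL7L1 stayed between means of 51.0 ± 15.8 TPM in brain and 85.6 ± 27.5 in lymph tissue. RPL22, which binds RNA and is needed for T cell development, stood at 2403 ± 640 TPM in lymph tissue, 1232 ± 406 in backfat, 761 ± 138 in brain, 572 ± 122 in tenderloin and 567 ± 156 in loin. Its paralogue RPL22L1, outside the wording, had means of 562 TPM in ET-type and 560 TPM in L-type lymph tissue, 471 TPM in ET-type and 558 TPM in L-type backfat, and 89.0 to 145 TPM in the 4 muscle groups. RPL26L1 had its highest group mean in ET-type brain, 42.0 TPM, and its lowest in ET-type loin, 9.89 TPM. The anchor RPS6, the small-subunit protein phosphorylated by S6 kinase, stood on the TPM scale at 2765 ± 516 in lymph tissue, 2497 ± 944 in backfat, 960 ± 166 in brain, 931 ± 176 in tenderloin and 858 ± 143 in loin; the last 3 overlapped.

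The same tissues were compared for genes that build ribosomes. Of 49 entries of ribosome assembly factors tested, 40 were higher and 2 lower in lymph tissue than in the mean of the other tissues, and of 15 entries of RNA polymerase I and its factors, which make ribosomal RNA, 14 were higher and none lower. Of 45 entries of translation initiation factors, 26 were higher and 6 lower, and of 12 cell division entries 12 were higher. Among the 90 mitochondrial ribosomal protein entries, 25 were higher and 30 lower. These counts stand beside 46.1% higher and 31.6% lower among all entries.

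The comparison of the types asks whether ET-type and L-type pigs differ in these transcripts within a tissue. In backfat, cytosolic ribosomal protein transcripts were lower in the ET type: 44 of 118 members tested passed, all lower, and none was higher. Among all 14187 entries, 0.881% were lower and 6.39% higher. The members' median difference was -0.89 on the log2(TPM + 1) scale, against 0.30 for all entries. Of the 44, 24 belonged to the large subunit, of 77 tested, and 20 to the small subunit, of 41 tested, and the medians were -0.80 and -0.97. The calls covered 40 proteins, with differences from -1.61 to -0.88. Of all 118 members, 96 had a negative difference, and 19 of the 22 positive ones were entries with a mean under 20 TPM. With entries summed per protein, 45 of 76 proteins were lower and none higher.

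RPL34, a large-subunit protein, read 1621, 1188, 1772, 1226 and 1025 TPM in the 5 ET-type backfat libraries and 3419, 3604, 3448 and 4861 TPM in the 4 L-type libraries. Every L-type library lay above every ET-type library, and the difference was -1.50 ± 0.25 (SE; limma adjusted p = 0.0093). RPS27 read 2121, 1783, 3379, 1901 and 1629 TPM in the ET type and 5863, 4759, 4877 and 7651 TPM in the L type. It did not overlap either, with a difference of -1.44 ± 0.29 (adjusted p = 0.018). RPL11, which with RPL5 and 5S RNA binds MDM2 when assembly fails, read 731, 731, 832, 673 and 543 TPM in the ET type and 1660, 1977, 1583 and 2186 TPM in the L type. Its groups were likewise apart, and the difference was -1.40 ± 0.22 (limma adjusted p = 0.0074).

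RPL37 had 811 ± 224 TPM (SD, n = 5) in the ET type and 2122 ± 304 TPM (SD, n = 4) in the L type, a difference of -1.42 ± 0.26. RPS14, at the decoding side of the small subunit, had 1359 ± 379 against 3411 ± 1201 TPM, a difference of -1.31 ± 0.31. The groups of RPL37 and of RPS14 did not overlap. A low entry of RPS19, mutated in Diamond-Blackfan anaemia, had the lowest difference of the called members, -1.61 ± 0.30, with 32.7 ± 14.0 against 95.8 ± 13.4 TPM, and a fish-named entry of RPL36A read 9.09 ± 1.81 against 29.7 ± 12.9 TPM, a difference of -1.53 ± 0.30. RPS6 was called, at -0.92 ± 0.24 (limma adjusted p = 0.043), and read 1790 ± 303 TPM in the ET type and 3381 ± 614 TPM in the L type.

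Some of the most abundant members did not pass. RPLP1 read 8173 ± 614 TPM in the ET type and 14487 ± 1811 TPM in the L type, a difference of -0.82 ± 0.25 (limma adjusted p = 0.073) although the groups did not overlap. RPLP2 read 8337 ± 2092 against 15251 ± 7752 TPM, at -0.79 ± 0.36 (adjusted p = 0.20), and RPLP0 2967 ± 637 against 4879 ± 1027 TPM, at -0.72 ± 0.26 (adjusted p = 0.12). RPL22 stood at 944 ± 218 against 1592 ± 258 TPM. Its chicken-named entry differed by -0.75 ± 0.24 and its pig entry by -0.80 ± 0.23 (adjusted p = 0.078 and 0.054). RPL3 had 1702 ± 335 against 2500 ± 1438 TPM with overlapping groups, since 1 L-type library, that of S0377, held 4622 TPM and the other 3 held 1527 to 2137 TPM. The fusion genes RPS27A (-1.40 ± 0.28) and FAU (-0.96 ± 0.23), outside the members, passed as lower. The member RACK1, a small-subunit scaffold, did not (-0.83 ± 0.25, limma adjusted p = 0.067). RPS27L was lower at -1.11 in the per-protein fit (limma adjusted p = 0.019), but differed by -0.26 with hits at 1e-30, and RPL7L1, at -0.25, did not pass.

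**Figure D4:**
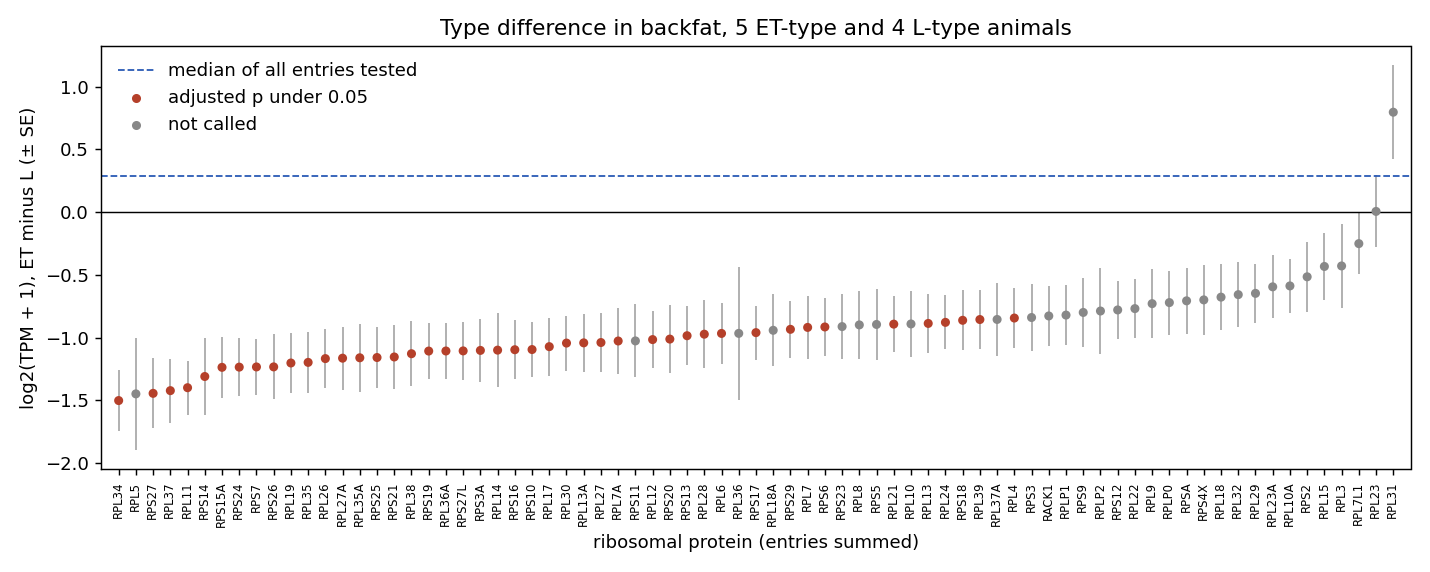
Difference between ET-type and L-type backfat in log2(TPM + 1) for 75 ribosomal proteins with entries summed, ordered by size; bars are standard errors, red points have a limma adjusted p under 0.05 and grey points do not. The dashed line is the median of all entries tested, near 0.30, and all but 2 of the proteins lie below 0.

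Genes of related function were counted in the same backfat fit. Of 90 mitochondrial ribosomal protein entries, 1 was higher and none lower, with a median of 0.18. None of 47 ribosome assembly entries passed limma's test, with a median of -0.23 and 3 at an unadjusted p under 0.05, 2 of them lower. Of 15 entries of RNA polymerase I and its factors none passed either, with a median of -0.19 and 0 at an unadjusted p under 0.05. None of 28 entries of mTOR and of regulators of its target messenger RNAs passed. Of these, 7 had an unadjusted limma p under 0.05, and only 2 of the 7 were lower in the ET type. Of 42 initiation factor entries 1 was higher and 1 lower. Among 17 elongation factor entries, EEF1B2 was lower at -1.16 ± 0.28 (limma adjusted p = 0.032) and an entry of EEF2 higher at 2.44 ± 0.59 (adjusted p = 0.033). The difference between the lists was not tested.

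Several lists of cell type markers moved with the types in the same backfat libraries. At the looser threshold of an unadjusted limma p under 0.05, other lists had 0 of 6 entries for skeletal muscle, 0 of 4 for endothelium and 2 of 6 for plasma cells. The counts that follow are of entries at an adjusted p under 0.05. Adipocyte markers passed as higher in the ET type for 6 of 8 entries and summed to 8107 to 18094 TPM in the ET type against 528 to 7376 TPM in the L type. Fibroblast markers were higher for 3 of 6 entries and summed to 6713 to 23990 against 975 to 3657 TPM, and macrophage markers were higher for 3 of 7 entries, at 148 to 330 against 45.6 to 134 TPM. Red cell markers were higher for 2 of 3 entries, T cell markers for 2 of 3, at 6.70 to 15.0 against 0.235 to 2.78 TPM, and of 2 B cell entries 1 was lower, with sums of 17.1 to 21.2 against 27.2 to 43.0 TPM. None of the defining adipocyte markers was at 0 in either type. Their part in the ribosomal protein result was not tested. By the length of the assembled transcript, the members' median ranged over 6 classes from -1.04 under 750 bases to -0.66 over 4000 bases. That of other entries rose with length over the same classes, from 0.17 to 0.35. Whether length has a part in the difference was not tested.

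The backfat count rests on few animals. It was 44 with 9 libraries, and leaving out 1 animal gave 6 without S0384, 9 without S0326, 11 without S0385, 19 without S0377 and 20 without S0235, up to 53 without S0276, with medians of the members from -0.94 to -0.79. Putting the left-out library of S0355 back under its label adds to the L type a library rich in muscle transcripts, with 6.59% of its TPM in members, so its result says nothing about the stability of the type difference. With it none passed, 14 had an unadjusted p under 0.05, and the median was -0.50.

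In the other tissues few members passed. In brain, none of 126 members and 0% of all entries in either direction passed with limma, and 11 members had an unadjusted p under 0.05. In lymph tissue, none of 123 passed, again with 0% of all entries in either direction, and 6 had an unadjusted p under 0.05. For all member counts at an unadjusted limma p under 0.05, the share of all entries at that threshold is not given here. The members' medians were 0.11 and 0.13. With all 50 libraries none passed in either tissue, with 5 members in brain and 7 in lymph tissue at an unadjusted p under 0.05 and medians of 0.15 and -0.21. Their sums were 23.2% ± 2.60 (SD, n = 4) in ET-type and 20.7% ± 3.91 (SD, n = 5) in L-type lymph tissue, and 7.83% ± 0.887 (SD, n = 4) and 6.88% ± 1.06 (SD, n = 4) in brain, with overlapping ranges.

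In loin, 1 member was higher in the ET type and 2 were lower, against 5.26% and 22.1% of all entries, and the members' median was 0.20 against -0.22 for all entries. RPS16, at the P site side of the small subunit, read 812, 1013, 578, 835 and 1174 TPM in the ET type and 400, 520, 487 and 649 TPM in the L type. The groups overlapped through S0276 and S0385, and the difference was 0.76 ± 0.22 (limma adjusted p = 0.029). The lower ones were low entries, RPL10 with a macaque hit (3.24 ± 1.99 against 8.21 ± 2.16 TPM, adjusted p = 0.019) and RPLP2 with a mouse hit at 73.3% identity (2.98 ± 1.43 against 5.33 ± 0.713 TPM, adjusted p = 0.046). Median-ratio scaling moved the median of all entries in loin to 0.01 and that of the members to 0.47, and then 28 members were higher and 1 lower. The shares of all entries called under that scaling are not given here, and those above belong to the unscaled fit. Without S0276, 18 were higher and 1 lower, and without S0242, S0326, S0349 or S0377 only 1 passed. With all 50 libraries, including the adipocyte-rich one of S0355, none passed, and 5 had an unadjusted p under 0.05. With entries summed per protein, RPS16 and RPS27 were higher; RPS27 read 832 ± 238 against 493 ± 82.2 TPM (limma adjusted p = 0.048, and 0.056 by entry). Among other loin entries the type difference moved with length, from 0.07 for transcripts under 750 bases to -0.29 for those over 4000 bases, and among members from 0.26 to 0.08.

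In tenderloin, 1 member was lower and none higher, against 0.15% and 0.775% of all entries. It was the mouse-hit entry of RPLP2, which read 3.62, 5.63, 4.70, 2.94 and 4.92 TPM in the ET type and 8.94, 12.6, 10.9, 17.9 and 14.2 TPM in the L type, with no overlap (-1.37 ± 0.21, limma adjusted p = 0.023). The main entry of RPLP2, summed with it, read 2386 ± 223 TPM (SD, n = 5) in the ET type and 3785 ± 577 TPM (SD, n = 5) in the L type. These groups did not overlap, and alone the main entry differed by -0.66 ± 0.16 (adjusted p = 0.075). With entries summed per protein, RPLP2 did not pass (limma adjusted p = 0.063) and RPL5 was the protein called. RPL5 read 36.6, 32.9, 33.0, 28.8 and 18.1 TPM in the ET type and 41.7, 65.4, 77.3, 65.6 and 58.8 TPM in the L type, which did not overlap. Its difference was -1.03 ± 0.21 (adjusted p = 0.037), and by entry -1.04 ± 0.22 (adjusted p = 0.054). Without S0326, S0355 or S0377 no member passed, and without S0349 there were 2. The members' sum was 5.23% ± 0.323 (SD, n = 5) in the ET type and 6.38% ± 0.943 (SD, n = 5) in the L type, and these ranges overlapped.

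Averaged over the 5 tissues, with the animal as a correlated block, 4 members were lower in the ET type and none higher, against 2.62% and 2.09% of all entries. These were an entry of RPL12 with a chinchilla hit at 7.29 TPM (-1.13 ± 0.24, limma adjusted p = 0.0043), RPL5 (-0.75 ± 0.18, adjusted p = 0.0090), the fish-named entry of RPL36A (-0.62 ± 0.16, adjusted p = 0.016) and the mouse-hit entry of RPLP2 (-0.58 ± 0.17, adjusted p = 0.043). The leading entry of RPL12, at 2102 TPM, differed by -0.05 ± 0.10 (adjusted p = 0.84). RPL5 read 80.8 ± 50.1 TPM in ET-type and 197 ± 72.0 TPM in L-type backfat, where it did not pass (limma adjusted p = 0.072). Without S0355, 7 members were lower, and with all 50 libraries 3. Summed per protein 1 was lower, and without the block 16 were.

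Whether the type difference varied with tissue was tested as an interaction, with animal as a fixed block. Of 123 members 80 passed, against 27.3% of all entries. For 76 of the 80, backfat had the lowest type difference of the 5 tissues. Of the 80, 77 had a negative difference in backfat and 77 in tenderloin, 13 in loin, 13 in lymph tissue and 9 in brain. The 80 were picked by a test on these same libraries, so the counts by tissue describe them and are no further support. Matching counts for all entries are not given here. RPL11 differed by -1.40 in backfat, -0.32 in tenderloin, 0.12 in brain, 0.13 in loin and 0.19 in lymph tissue (limma F-test, adjusted p = 1.7e-05). RPL34 differed by -1.50, -0.28, 0.24, 0.32 and 0.04 in the same order (adjusted p = 9.2e-05), and RPS27 by -1.44, -0.19, 0.06, 0.71 and 0.16 (adjusted p = 0.00059). RACK1 was among the 80. Outside the members, RPS27A and FAU passed, as did 22 of 90 mitochondrial ribosomal protein entries, 7 of 49 assembly entries and 12 of 45 initiation entries. RPL3 did not pass (adjusted p = 0.23), nor did RPL3L (adjusted p = 0.66). With all 50 libraries, in which the libraries labelled backfat and loin of S0355 go against their labels, 1 member passed and 8 had an unadjusted p under 0.05.

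**Figure D5:**
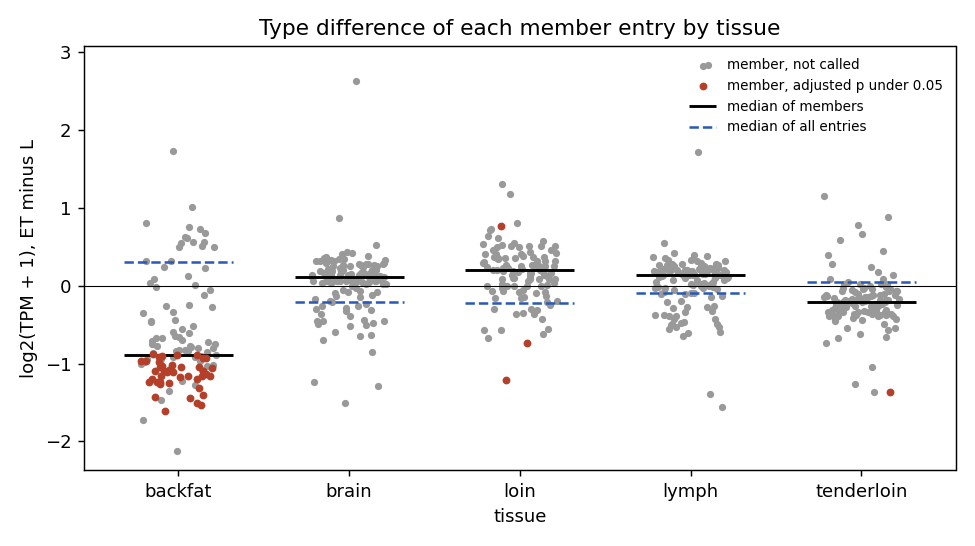
Type difference, ET minus L, in log2(TPM + 1) for each member entry tested (points) in each tissue (x axis); red points have a limma adjusted p under 0.05, black lines are the members' medians and dashed lines the medians of all entries. In backfat the members' median is -0.89 and that of all entries 0.30, while in the other 4 tissues the members' medians lie between -0.22 and 0.20.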

How the data were processed

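The values are TPM, deposited per transcript for 50 libraries as the authors' table over a transcriptome assembled without a genome. Libraries came from a stranded mRNA kit, per the labels' protocols. Trimmomatic 0.36, Salmon 1.10.0 and the build Sscrofa11.1 are named in the submitters' processing notes, with no settings; these are not given in the sources used here. Deposited values of a library sum to 1000000 TPM, and 0 columns were left unmapped.

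Of 57085 transcripts, 32158 had an animal Swiss-Prot hit at an E value of at most 1e-10 and were summed per entry; 20601 had no hit, 1864 exceeded the E value, 43 hit other organisms and 2419 hit LINE-1, retrotransposon or retroviral proteins. Tests used limma 3.58.1 in R 4.3.3 with a mean-variance trend on log2(TPM + 1), a filter (mean of the fit's libraries 1 TPM or more) and Benjamini-Hochberg adjustment over all entries; the scale understates changes of low entries. In the type difference over the tissues the animal was a correlated block (consensus correlation 0.128), and in the interaction a fixed one. The comparisons among tissues had type as a covariate and no term for the animal, except where a block is named. The labels tie libraries to animals: over all entries, deviations from group means in loin and tenderloin had a median r of 0.51 for 9 same-animal pairs and -0.03 for 81 others.

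The fits were also run on simulated data with independent noise for each entry and library. That noise held no shared animal effect and no correlation among members, so the simulation says nothing about either. Members and lists were chosen with earlier results of these data known. Genes named are the 8 called members with the largest change in each direction of a comparison, the 5 highest and lowest proteins, paralogues, RPLP0, RPL3, RPS6 and RPL22; other names and shares were chosen after their values were seen. Alternatives changed the pseudocount (0.1), the filter, the scaling, the transcripts or entries summed, the E value (1e-30), the libraries and the block. No sequences were used. Some members are counted but not reported by name here.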

Additional observations from a re-analysis of the deposited data

Results flagged for a closer look

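The 80 members called in the interaction of type with tissue differ between tissues in their type effect. Among the members named for backfat, the interaction passed by limma's F-test for RPS19 (rat entry, adjusted p = 0.00016), RPL34 (9.2e-05), RPS27 (0.00059), RPL37 (0.00019), RPL11 (1.7e-05) and RPS14 (0.00011); each was lower in ET-type backfat than in L-type backfat. The fish-named entry of RPL36A did not pass (adjusted p = 0.054). These members were named for the size of their backfat differences. The F-test uses the same backfat libraries, so its result for them is no separate support.

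Of 78 series of 4 or 5 libraries examined for a library far from the rest of its group, 3 held one, where chance gives about 1 in 20. RPLP2 stood at 3129 TPM in the ET-type loin library of S0235, while the other 4 held 1510 to 1785 TPM. RPS6 stood at 635 TPM in the ET-type loin library of S0276, the lowest of 5. RPLP0 stood at 1712 TPM in 1 L-type tenderloin library, the highest of 5.

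In the loin library of S0355 that was left out, the members summed to 11.7% of TPM, above the 4.41% to 6.14% of the other L-type loin libraries and within the 10.6% to 14.6% of ET-type backfat.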

How the results depend on the processing

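Of 260 recounts of the 15 member counts under alternatives, 226 stayed within 1.5-fold of the reported count. In backfat the count was 28 without a filter, 0 with all 50 libraries, and 6 to 53 when 1 animal was left out; without each of S0235, S0326, S0377, S0384 and S0385 it moved by over 1.5-fold. In loin it was 29 with median-ratio scaling, 0 with all 50 libraries and 1 to 19 with 1 animal left out. In tenderloin it was 2 with median-ratio scaling, 0 at an E value of at most 1e-30, and 0 to 2 with 1 animal left out. Over the tissues it was 2 at 1e-30, 1 per protein and 3 to 7 with 1 animal left out. With fewer units to count, summing per protein gave 77 of 77 for differences among the tissues, 58 for brain, 73 for loin, 72 for tenderloin and 4 for loin against tenderloin. Median-ratio scaling gave 47 for loin and 36 for tenderloin against the other tissues. With all 50 libraries the interaction had 1 call, and loin against tenderloin 2. The libraries put back there go against their labels in backfat and loin, so these values do not bear on stability. Where the cause is not the smaller number of units, the cause was not tested.

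With a replicate block for the animal, loin against tenderloin gave 11 calls, and without the block the over-tissue count was 16; the block changed no other count by over 1.5-fold.

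Of 125 called values of named members, 2080 refits kept the call in 1935 and lost it in 135. In 10 the sign turned. With median-ratio scaling RPLP0 turned in brain (human entry, -0.16), loin (0.30) and tenderloin (0.069), RPS27L in loin (0.41) and tenderloin (0.024), and RPS6 in tenderloin (0.087). RPS27L turned in brain with 1 transcript per entry (0.064), and at 1e-30 in loin (0.94), lymph tissue (-0.21) and tenderloin (0.27).

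Depth is unknown, so counting error could not be set beside low entries. The number of animals, 4 or 5 a group, limits the type comparisons.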
